A study of Mus musculus with 12 samples.

Results

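The Notch genes described here are 10 of the 27998 genes in the deposited count tables of synovial cells from mouse joints at rest and in the course of an arthritis. They were chosen by name and not by any measured value. The set holds the 4 receptors *Notch1*, *Notch2*, *Notch3* and *Notch4*, the 3 ligands *Jag1*, *Jag2* and *Dll4*, and the 3 target genes *Hes1*, *Hey1* and *Heyl*. Every one of the 10 symbols was found in the tables.

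Notch receptors sit in the cell membrane and are bound by Jagged or Delta-like ligands on a neighbouring cell. Binding leads to cleavage of the receptor by an ADAM protease and then by gamma-secretase, and the freed intracellular part joins the DNA-binding protein RBPJ and Mastermind-like proteins in the nucleus. There it turns on genes of the Hes and Hey families, which encode transcriptional repressors. In blood vessels the pathway is known for its roles in arterial identity, in sprouting of endothelial cells and in the upkeep of mural cells, and in the synovium Notch signalling from vessels to the fibroblasts around them has been described.

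The study followed serum transfer-induced arthritis (STIA), in which serum of K/BxN mice, rich in antibodies to glucose-6-phosphate isomerase, inflames the joints of a recipient and the swelling then resolves by itself. Wild-type C57BL/6 mice, male and aged 8 to 10 weeks per the methods, received 100 μl of serum intravenously, and no mutant allele was used. Hind limb joints were taken at rest (day 0, no serum), at the peak (days 7 to 9), while resolving (day 15) and once resolved (day 22), with 3 libraries per stage. Each library pooled the joints of 3 animals, so the spread between libraries is a spread between pools. Joints were digested with collagenases at 37 °C, live CD45-negative cells were sorted, and droplet 3′ single-cell RNA sequencing counted unique molecular identifiers (UMIs) per gene. The sort selects against leukocytes, and Notch genes of leukocytes are not described. A cluster of 166 cells led by *S100a8*, *S100a9* and *Lyz2* remained, was left unnamed and entered no comparison. A list of 7 leukocyte markers had median summed levels from 0 CPM in muscle and lymphatic endothelial cells to 18.8 CPM in vascular endothelial cells, where it ranged from 4.17 to 164 CPM.

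The 12 libraries held 21042 cells, of which 20060 passed the limits, with 1227 to 2747 cells and 7468914 to 16566202 UMIs per library. The median cell held the same 5358 UMIs in every library, over all deposited cells, and 5231.5 to 5562 in the kept cells. Whether depth was made equal before deposit is not known. With the suffix removed, no barcode was found in more than 1 library, and whether repeated barcodes were dropped before deposit is not known. Each library carries a number from 1 to 12 behind its cell barcodes, and libraries resembled each other by runs of 3 consecutive numbers and not by stage label. In fibroblasts, over 9223 genes, the nearest library stood in the same run for 12 of 12 libraries and carried the same label for 0 of 12. In vascular endothelial cells these counts were 7 and 0, and in perivascular cells 4 and 2. The numbers follow the labels in order, with rest 1, peak 1, resolving 1 and resolved 1 at 1 to 4. Libraries of replicate number 2 hold 5 to 8 and those of number 3 hold 9 to 12, in the same order of stages. Nothing in the labels says what the numbers stand for. Whether a run reflects the biology of a stage, a batch or an exchange of labels was not tested. Libraries are therefore named below as "labelled rest 1" and so on, and values are given both by label and by run.

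Cell types were rebuilt from the counts and named from markers, so each name stands for "like" that type. The 9 types compared were fibroblasts with 12217 cells, tenocytes with 1699, vascular endothelial cells with 1590, osteoblasts with 1411, proliferating cells with 951, perivascular cells with 644, chondrocytes with 311, muscle cells with 281 and lymphatic endothelial cells with 184. The proliferating cluster carried 7 fibroblast markers, as many as most fibroblast clusters, and is therefore not set apart from fibroblasts by them. Whether it holds dividing fibroblasts was not tested. It reached 10 cells in 6 libraries, those of suffixes 4 to 9, with 0 to 5 cells in each other library. None of the 10 genes was used to cluster the cells. Levels are given as CPM, the UMIs of a gene scaled to a fixed total over all cells of a type in a library. The 3′ chemistry reads 1 end of a transcript, so levels are compared between cell types and libraries and not between genes.

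The promoters of *Notch3* and *Dll4* are shown because these genes had the largest differences from fibroblasts among the 10, in perivascular and in vascular endothelial cells respectively. The sequences are the 250 bases upstream of the RefSeq start on GRCm38.p6, 5′ to 3′ on the strand of the gene, and capitals mark the GC box GGGCGG or its reverse complement CCGCCC, the core bound by SP1-family factors. *Notch3* stands at chr17:32166891-32167140 on the minus strand and *Dll4* at chr2:119325534-119325783 on the plus strand.
Notch3: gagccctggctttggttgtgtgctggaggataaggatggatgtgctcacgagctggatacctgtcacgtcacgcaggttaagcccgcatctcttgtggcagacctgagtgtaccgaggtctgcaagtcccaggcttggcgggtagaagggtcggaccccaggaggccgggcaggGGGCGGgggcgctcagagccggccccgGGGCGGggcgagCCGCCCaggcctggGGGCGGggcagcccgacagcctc
Dll4: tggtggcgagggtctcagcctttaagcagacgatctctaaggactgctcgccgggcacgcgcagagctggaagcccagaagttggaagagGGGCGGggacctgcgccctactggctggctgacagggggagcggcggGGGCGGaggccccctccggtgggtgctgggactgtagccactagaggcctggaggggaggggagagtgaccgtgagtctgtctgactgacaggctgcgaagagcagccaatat
The *Notch3* window held 4 GC boxes, at 76, 49, 37 and 23 bases before the start, and 68.8% of its bases were G or C. The *Dll4* window held 2, at 160 and 113 bases before the start, with 65.6% G or C, against a median of 52.4% over all promoters. GC boxes were in 32.7% of 32851 RefSeq promoters of the same length. Promoters of 7 of the 10 genes were matched. *Notch1*, *Notch2* and *Jag2* held 5 GC boxes each, and *Notch4* and *Jag1* held 0. The RBPJ core TGGGAA (in 21.6% of all promoters), the ETS core CCGGAA (12%) and the E-box CACGTG (6.02%) were searched on both strands, and these letters were in none of the 7 windows.

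In GRCm38 (GENCODE M21), *Notch1* lies at chr2:26457903-26516663, *Dll4* at chr2:119325784-119335962 and *Jag1* at chr2:137081456-137116644. *Hey1* lies at chr3:8663359-8667256, *Notch2* at chr3:98013527-98150361 and *Heyl* at chr4:123233556-123249875. *Jag2* lies at chr12:112907819-112929776, *Hes1* at chr16:30064384-30067796, *Notch3* at chr17:32120820-32166852 and *Notch4* at chr17:34564268-34588503. *Notch3* overlaps the antisense gene *Gm17276*, which has a row of its own, so the *Notch3* counts rest on strand-aware counting.

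The 4 receptors divided the joint between them. *Notch3* was highest in perivascular cells, *Notch1* and *Notch4* in endothelial cells, and *Notch2* was spread over the mesenchymal types and nearly absent from vascular endothelium. Each type was compared with fibroblasts by the edgeR quasi-likelihood test with library as a block, over 8124 genes, and a gene was called at a Benjamini-Hochberg adjusted p under 0.05 and a log2 difference over 0.5 in size. Of the 10 genes, 8 passed the filter on low counts, and *Jag2* and *Notch4* did not. Differences below are of log2 CPM against fibroblasts with their standard error (SE). Called pairs of a gene and a type numbered 36, of which 26 were higher and 10 lower than fibroblasts. The share of all genes called was high in each type, at 42.9% in perivascular cells, 55.5% in vascular endothelial cells, 42.0% in lymphatic endothelial cells, 42.9% in muscle, 28.7% in osteoblasts, 21.9% in tenocytes, 49.7% in chondrocytes and 21.2% in proliferating cells. Against these shares, 8 of 8 Notch genes were called in perivascular cells, 7 in vascular endothelial cells, 5 in lymphatic endothelial cells, 4 in muscle, 3 in osteoblasts, 3 in tenocytes, 5 in chondrocytes and 1 in proliferating cells. The perivascular count includes *Dll4*, which had 0 to 2 UMIs per library there and is no sign of perivascular expression.

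*Notch3*, the receptor that vascular smooth muscle and pericytes depend on, had 319 ± 51.8 CPM (SD, n = 12 libraries) in perivascular cells, with 250 CPM in the lowest library, a median of 312 and 414 in the highest. In fibroblasts it had 0.976, 2.27 and 4.31 CPM as lowest, median and highest. Every perivascular sum lay above every fibroblast sum, and the difference was 6.79 (SE 0.15, adjusted p = 1.5e-53). Muscle cells came next with 80.9 ± 36.1 CPM (n = 8), from 43.1 to 142, which was 1.88 below perivascular cells (SE 0.21, adjusted p = 2.1e-12) and 4.91 above fibroblasts (SE 0.29, adjusted p = 7.8e-25). Osteoblasts followed with 6.31 ± 1.74 CPM and stood 1.30 above fibroblasts (SE 0.25, adjusted p = 7.5e-06). A UMI of *Notch3* was found in 69.9% of perivascular cells (450 of 644, median 3822 UMIs per cell) and in 0.377% of vascular endothelial cells (6 of 1590, median 2997 UMIs). In lymphatic endothelium *Notch3* was listed at 0 in all 10 libraries, 0 of 184 cells, which allows a share of cells with a UMI of up to 1.63% and sets no limit on cells that express the gene below detection.

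Below fibroblasts, *Notch3* was 1.90 lower in tenocytes (SE 0.47, adjusted p = 0.00092) and 1.78 lower in chondrocytes (SE 0.73, adjusted p = 0.033), the latter lost under 6 alternatives, among them leaving out the library labelled peak 1, resolving 2 or resolved 2. In vascular endothelial cells the difference was -0.94 (SE 0.42, adjusted p = 0.038). That call was lost under 13 alternatives, 7 of them single libraries left out (rest 2, rest 3, peak 1, peak 3 and all 3 labelled resolved), and the value became 2.97 when 2 small endothelial subclusters that also carried perivascular or fibroblast markers were kept among the endothelial cells.

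*Notch1*, a receptor of endothelial cells that is required for vessel growth, had its highest levels in both endothelia. Lymphatic endothelial cells held 120 ± 32.7 CPM (n = 10), with 78.7, 127 and 186 CPM as lowest, median and highest library, and vascular endothelial cells 83.2 ± 10.7 CPM (n = 12), with 67.7, 83.1 and 100 CPM. The ranges overlapped, and the difference between the endothelia was 0.19 (SE 0.24, adjusted p = 0.65). Fibroblasts held 0.413, 3.51 and 6.01 CPM, below every endothelial library. The differences from fibroblasts were 4.57 in lymphatic (SE 0.29, adjusted p = 7.5e-25) and 4.39 in vascular endothelium (SE 0.18, adjusted p = 2e-37). Perivascular cells, with 6.15, 24.2 and 33.8 CPM, lay between, at 2.57 above fibroblasts (SE 0.29, adjusted p = 1.3e-12) and 1.82 below vascular endothelium (SE 0.24, adjusted p = 2.6e-10). Muscle stood 2.72 above fibroblasts (SE 0.54, adjusted p = 1.8e-05), with 5 of 8 libraries higher. *Notch1* was detected in 37.0% of lymphatic endothelial cells (68 of 184, median 3431 UMIs) and in 2.22% of fibroblasts (median 5777 UMIs).

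*Notch2*, the receptor known for bone and for many mesenchymal cells, had the opposite layout. Osteoblasts had 40.7 ± 11.4 CPM, tenocytes 31.4 ± 6.31, muscle 31.2 ± 24.4 and fibroblasts 30.9 ± 6.44, and no neighbours in this order were called different. In vascular endothelial cells the lowest, median and highest libraries were 0, 0.530 and 5.23 CPM, against 19.5, 30.8 and 40.3 CPM in fibroblasts. The groups did not overlap, and endothelial cells were lower by 4.61 (SE 0.26, adjusted p = 7.5e-29). A UMI was seen in 0.566% of vascular endothelial cells (9 of 1590) and in 15.4% of fibroblasts. Lymphatic endothelial cells kept 23.0 ± 9.46 CPM, a difference of -0.86 from fibroblasts (SE 0.30, adjusted p = 0.02) that was lost under other scaling, under DESeq2 and without the library labelled resolved 2 or resolved 3. Perivascular cells, with 6.00, 12.7 and 27.8 CPM, were 1.30 lower (SE 0.21, adjusted p = 9.5e-08), and in 12 of 12 libraries they lay below the fibroblasts of the same library. Chondrocytes were 1.03 lower (SE 0.22, adjusted p = 2.9e-05). These *Notch2* differences between types were not tested after cells were thinned to equal depth.

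*Notch4*, a receptor found mainly in endothelium, was sparse. Vascular endothelial cells had 6.97, 19.2 and 33.5 CPM as lowest, median and highest library, and fibroblasts a mean of 0.498 CPM. It was detected in 6.60% of vascular endothelial cells and 0.327% of fibroblasts. With no filter on low counts, a fit of 20150 genes in which 38.5% were called in vascular endothelium, the difference was 4.61 (SE 0.30, adjusted p = 1.5e-29).

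**Figure D1:**
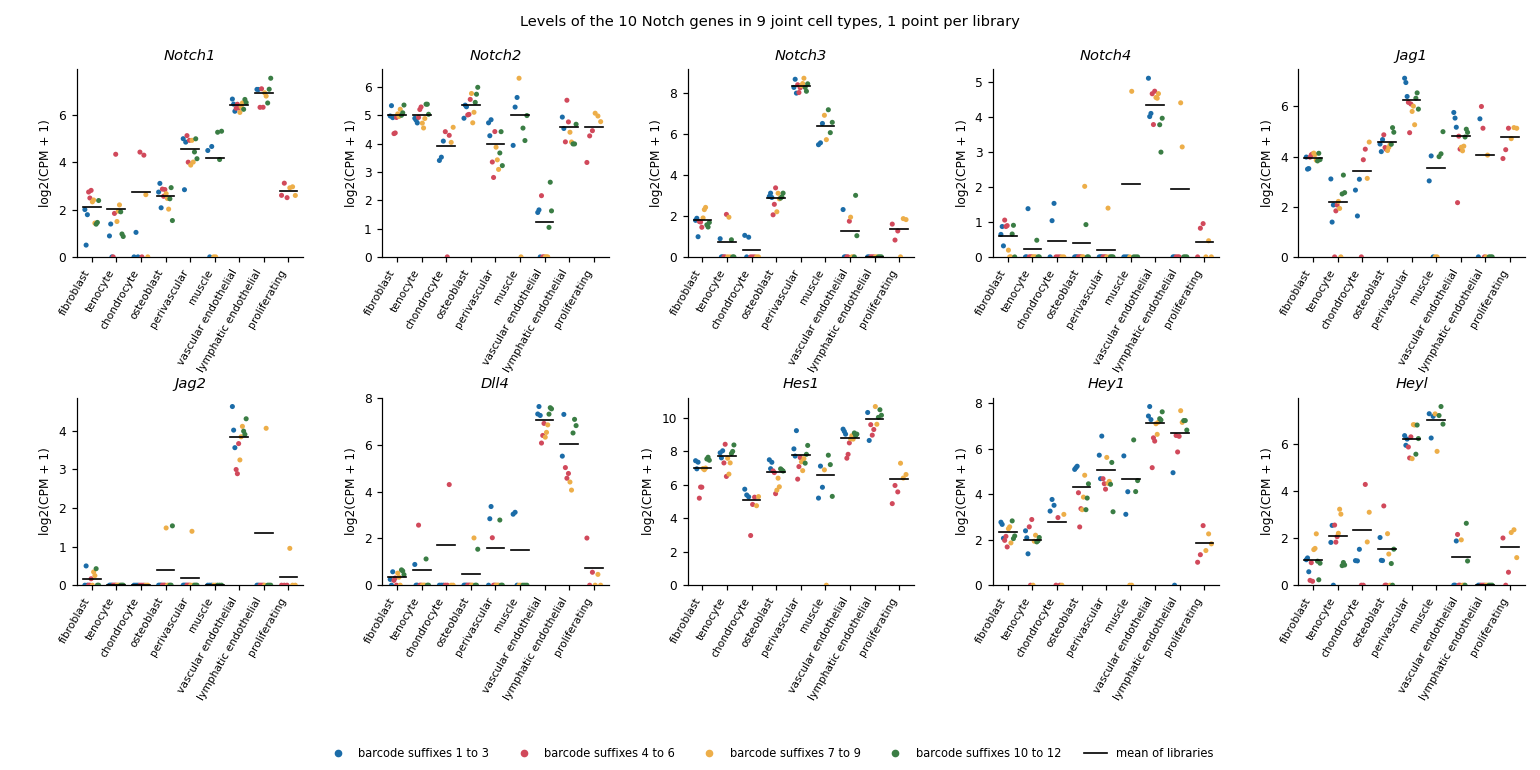
Level of each of the 10 Notch genes, as log2(CPM + 1), in 9 joint cell types. Each point is 1 library, coloured by the run of barcode suffixes it belongs to, and each line is the mean over libraries. *Notch3* peaks in perivascular cells (250 to 414 CPM), *Dll4* in vascular endothelial cells (66.1 to 197 CPM), and *Notch2* falls to 0 to 5.23 CPM in vascular endothelial cells.

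Among the ligands, *Dll4* and *Jag2* were highest in vascular endothelium and *Jag1* in perivascular cells. *Dll4*, the ligand of tip cells and arteries, had 132 ± 46.3 CPM in vascular endothelial cells, with 66.1, 135 and 197 CPM as lowest, median and highest library. Fibroblasts held 0, 0.252 and 0.574 CPM. No library of one type reached the other, and the difference was 8.18 (SE 0.21, adjusted p = 1.8e-53). Lymphatic endothelial cells had 15.7, 38.0 and 156 CPM, a 10-library range that overlapped with vascular endothelium, and stood 1.36 below it (SE 0.24, adjusted p = 3.3e-06) and 6.82 above fibroblasts (SE 0.41, adjusted p = 3.2e-26). A UMI of *Dll4* was present in 34.1% of vascular endothelial cells (542 of 1590), 21.2% of lymphatic endothelial cells and 0.180% of fibroblasts. In perivascular cells *Dll4* was called at 2.23 (SE 0.76, adjusted p = 0.01), but 4 of 12 libraries were higher than their fibroblasts, and the call was lost without the library labelled peak 3.

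*Jag1*, a ligand shown by mural cells and endothelium alike, had 74.9 ± 31.7 CPM in perivascular cells, with 30, 69.1 and 139 CPM as lowest, median and highest. Fibroblasts ranged only from 10.3 to 16.6 CPM with a median of 14.8, so the groups did not overlap, and the difference was 2.14 (SE 0.19, adjusted p = 2.4e-17). Vascular endothelial cells had 3.48, 26.8 and 53.2 CPM, 1.45 below perivascular cells (SE 0.22, adjusted p = 1.1e-08) and 0.69 above fibroblasts (SE 0.19, adjusted p = 0.00071), with 11 of 12 libraries higher. Proliferating cells, at 26.8 ± 8.95 CPM, and osteoblasts, at 23.0 ± 5.45 CPM, were not distinguished from endothelium or from each other. Against fibroblasts the proliferating cells, which themselves carried fibroblast markers, were 0.86 higher (SE 0.20, adjusted p = 0.00043) in 5 of 6 libraries. These 6 libraries are those of suffixes 4 to 9. Osteoblasts were 0.51 higher (SE 0.19, adjusted p = 0.022) in 12 of 12 libraries, a value at the size limit that was lost under 8 alternatives, 5 of them single libraries left out (rest 3, resolving 1, resolving 3, resolved 1, resolved 3). Tenocytes were low, with 0, 3.20 and 8.60 CPM, below every fibroblast library (-1.59, SE 0.26, adjusted p = 7.2e-07), and chondrocytes were 1.01 lower (SE 0.36, adjusted p = 0.013), lost after thinning and without the library labelled rest 1 or peak 1.

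*Jag2*, the other Jagged ligand, was found almost only in vascular endothelial cells, with 6.39, 13.6 and 23.6 CPM as lowest, median and highest library. Fibroblasts had a mean of 0.111 CPM, and chondrocytes, muscle cells and tenocytes were listed at 0. With no filter the difference of vascular endothelium from fibroblasts was 5.62 (SE 0.37, adjusted p = 4.4e-27), and 5.35% of endothelial cells held a UMI against 0.0819% of fibroblasts.

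The targets were led by the endothelia and the mural and muscle cells. *Hes1*, which many signals besides Notch can turn on, was present in all 9 types. Lymphatic endothelial cells had 962 ± 411 CPM, with 400, 914 and 1636 CPM as lowest, median and highest library, and vascular endothelial cells 452 ± 136 CPM, with 191, 489 and 640 CPM. The ranges overlapped, and lymphatic cells were 0.89 higher (SE 0.21, adjusted p = 0.00056). Fibroblasts held 35.8, 126 and 199 CPM, with vascular endothelium 1.62 higher (SE 0.19, adjusted p = 1.9e-12) and lymphatic endothelium 2.50 higher (SE 0.21, adjusted p = 5.9e-18). Perivascular cells, with 79.9, 192 and 602 CPM, were 0.61 above fibroblasts (SE 0.21, adjusted p = 0.0096), higher in 10 of 12 libraries. That call was lost without the filter, without the library block, after thinning to equal depth, and without the library labelled peak 2 or resolving 1. Tenocytes were 0.92 higher (SE 0.19, adjusted p = 6.9e-05). Chondrocytes were the lowest type, with 6.83, 37.5 and 52.3 CPM, below the fibroblasts of the same library in 8 of 8 (-1.66, SE 0.30, adjusted p = 1.6e-06). *Hes1* was detected in 70.7% of lymphatic endothelial cells (130 of 184), 59.8% of vascular endothelial cells and 32.2% of fibroblasts.

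Tissue digestion is known to induce immediate early and stress genes, so 20 of these (such as *Fos* and *Jun*) were read beside *Hes1*. In tenocytes 11 of them were higher than in fibroblasts and 0 lower, with a median difference of 0.56. In vascular endothelium 7 were higher and 4 lower with a median of 0.34, in lymphatic endothelium 1 was higher and 7 lower with a median of -0.23, and in chondrocytes 5 were higher and 5 lower. Of all genes, 9.28% were higher and 12.6% lower in tenocytes, and 26.9% and 28.7% in vascular endothelium. These shares were 15.0% and 27.0% in lymphatic endothelium, and 20.3% and 29.3% in chondrocytes. The part of dissociation in the level of *Hes1* was not tested.

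*Hey1*, a repressor that marks arteries, had 136 ± 53.7 CPM in vascular endothelial cells, with 34.8, 147 and 229 CPM as lowest, median and highest library. Fibroblasts held 2.21, 3.45 and 6.09 CPM, below every endothelial library, and the difference was 4.75 (SE 0.18, adjusted p = 2.6e-40). Lymphatic endothelium had 0, 103 and 202 CPM, which was 4.23 above fibroblasts (SE 0.33, adjusted p = 1.3e-19) in 9 of 10 libraries and was not separated from vascular endothelium (0.51 lower, SE 0.26, adjusted p = 0.14). Perivascular cells, with 32.8 ± 22.8 CPM, were 2.65 above fibroblasts (SE 0.30, adjusted p = 1.7e-12), muscle 2.53 (SE 0.50, adjusted p = 1.5e-05) with 6 of 8 libraries higher, and osteoblasts 2.07 (SE 0.23, adjusted p = 1e-12). In chondrocytes the value of 0.92 (SE 0.41, adjusted p = 0.046) was lost under 11 alternatives, 7 of them single libraries left out (all 3 labelled rest, peak 1, resolving 1, resolving 3 and resolved 3). A UMI was found in 27.7% of lymphatic and 26.2% of vascular endothelial cells and in 2.26% of fibroblasts.

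*Heyl*, a target of Notch in vascular smooth muscle and in muscle stem cells, was highest in the same types as *Notch3*. Muscle cells had 131 ± 47.4 CPM (n = 8), with 51.2, 148 and 195 CPM as lowest, median and highest library, and perivascular cells 75 ± 26.9 CPM, with 41.1, 74.6 and 114 CPM. The ranges overlapped, and muscle was 0.94 higher (SE 0.32, adjusted p = 0.014), the reverse of the order for *Notch3*. Fibroblasts held 0.123, 0.989 and 3.56 CPM, far below every library of both types, which stood 6.73 (SE 0.35, adjusted p = 1.1e-27) and 5.78 (SE 0.29, adjusted p = 6e-30) higher. *Heyl* was detected in 28.1% of muscle cells (79 of 281, median 2613 UMIs), 22.4% of perivascular cells and 0.314% of vascular endothelial cells. In vascular endothelial cells the difference from fibroblasts was -0.13 and not called, and in lymphatic endothelium the gene was listed at 0.

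Over the 9 types, the genes whose mean levels on the log2(CPM + 1) scale followed each Notch gene most closely are given as a description, among genes with at least 5 CPM in 1 type. For *Dll4* these were *Mmrn2*, *Sox7* and *Ushbp1* (Pearson r from 0.990 to 0.991), and for *Jag2* *Exoc3l2*, *Scgb3a1* and *Ceacam1* (0.993 to 0.996). For *Notch4* they were *Slc12a7*, *Tmem88* and *Pcdh17* (0.970 to 0.985), for *Notch3* *Limd1*, *Slc2a4* and *Emd* (0.963 to 0.972), and for *Heyl* *Opa3*, *Asb2* and *Sgca* (0.955 to 0.977). *Jag1*, led by *Actb* at 0.937, had the loosest likeness of the 10. The values share libraries and depth, so no p is given.

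Other genes of the pathway were taken from a list of 48, of which 33 passed the filter. In vascular endothelial cells 8 were higher than in fibroblasts and 10 lower, shares near those of all genes (26.9% higher and 28.7% lower). *Mfng*, a fringe glycosyltransferase that tunes which ligand a receptor answers, was 8.23 higher (SE 0.20), with mean levels of 116 against 0.216 CPM, and *Lfng*, another fringe enzyme, was 4.38 higher (SE 0.29). *Nrarp*, a Notch target that dampens the signal, was 6.61 higher (SE 0.34), and the ligand *Dll1* 4.97 higher (SE 0.25). *Rbpj*, the DNA-binding partner of all 4 receptors, was 1.75 lower (SE 0.13), and so were *Numbl*, *Dlk1* and *Dtx4*, by 3.39, 1.86 and 4.70.

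In perivascular cells 6 of the 33 were higher and 8 lower, again near all genes (18.8% and 24.2%). *Nrarp* led with a difference of 8.07 (SE 0.33), at 65.6 against 0.128 CPM. *Dlk1*, a membrane protein related to the Delta ligands, was 5.77 higher (SE 0.29), at 150 against 2.39 CPM, and *Rbpj* was 0.96 lower. In lymphatic endothelium 7 were higher and 9 lower (15.0% and 27.0% of all genes), led by *Dtx1*, a Deltex ubiquitin ligase, at 9.43 higher (SE 0.34) with 119 against 0.0102 CPM. Muscle had 4 higher and 8 lower (14.6% and 28.4% of all genes), with *Dtx1* 3.32 and *Dtx4* 3.04 higher. Higher and lower calls numbered 2 and 14 in chondrocytes (20.3% and 29.3% of all genes), 2 and 6 in osteoblasts (12.6% and 16.1%), 1 and 5 in tenocytes (9.28% and 12.6%) and 1 and 6 in proliferating cells (6.02% and 15.2%). All genes showed more lower than higher calls in each of these types as well. *Lfng* was 4.60 higher in chondrocytes (SE 0.37) and 2.99 in osteoblasts.

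Within the vascular endothelium, Notch genes separated the arterial-like from the venous-like cells. The 1590 cells after removal of mixed ones formed 5 subclusters. They were E1 and E2, capillary-like, with 540 and 296 cells; E3, unnamed, with 274 cells with *Col18a1* and *Mest* among its leading genes; E4, arterial-like, with 260; and E5, venous-like, with 220. Each was compared with the mean of the others over 2421 genes, of which 27.8% were called in E1, 26.8% in E2, 38.9% in E3, 17.6% in E4 and 22.7% in E5. Of the 10 genes, *Notch1*, *Dll4*, *Hes1* and *Hey1* passed the filter, and 3 were called in each of E4 and E5, in opposite directions.

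In E4, *Hey1* had 399 ± 123 CPM (n = 10), with 214, 417 and 598 CPM as lowest, median and highest library, and in E5 43.2 ± 29.9 CPM (n = 10), with 0, 42.2 and 103 CPM. No E5 library reached any E4 library. E4 was 2.20 above the other subclusters (SE 0.17, adjusted p = 6e-15) and E5 1.84 below them (SE 0.27, adjusted p = 2.3e-07), both in 10 of 10 libraries. E2, the next highest, was 2.1 below E4 (SE 0.25, adjusted p = 3.2e-09). *Dll4* followed, at 204 ± 77.9 CPM in E4 and 73.8 ± 32.9 CPM in E5. It was 0.68 higher in E4 (SE 0.16, adjusted p = 0.0012) in 8 of 10 libraries and 0.82 lower in E5 (SE 0.20, adjusted p = 0.0011) in 10 of 10. Capillary-like E2 held 204 CPM on average over 6 libraries, as much as E4 over 10, while E3 held 75.4 CPM over 6. The E2 and E3 libraries belong to different suffix runs, and none is shared. The contrast between the E2 and E3 means therefore cannot be told apart from a difference between runs.

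*Hes1* ran the other way. It was 0.57 lower in E4 (SE 0.16, adjusted p = 0.005), at 343 ± 97.1 CPM, and 0.52 higher in E5 (SE 0.14, adjusted p = 0.0038), at 596 ± 169 CPM. The E5 call was lost with no filter and without the library labelled rest 1, rest 2 or resolving 3. Of the 20 dissociation genes, 14 were higher and 0 lower in E4, and 12 higher and 2 lower in E5, and their part in the *Hes1* values was not tested. *Notch1* was 0.49 higher in E4 (SE 0.18, adjusted p = 0.031), under the size limit.

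The ligands *Jag1* and *Jag2* were too sparse for the filter. With no filter (15046 genes, 4.85% called in E4), *Jag1* was 2.1 higher in E4 (SE 0.26, adjusted p = 1.4e-13), at 87.0 ± 46.1 CPM against means of 14 to 19.6 CPM in the other subclusters. *Jag2* was 1.69 higher (SE 0.37, adjusted p = 0.00022), at 36.2 ± 19.1 against 6.77 to 13.8 CPM.

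**Figure D2:**
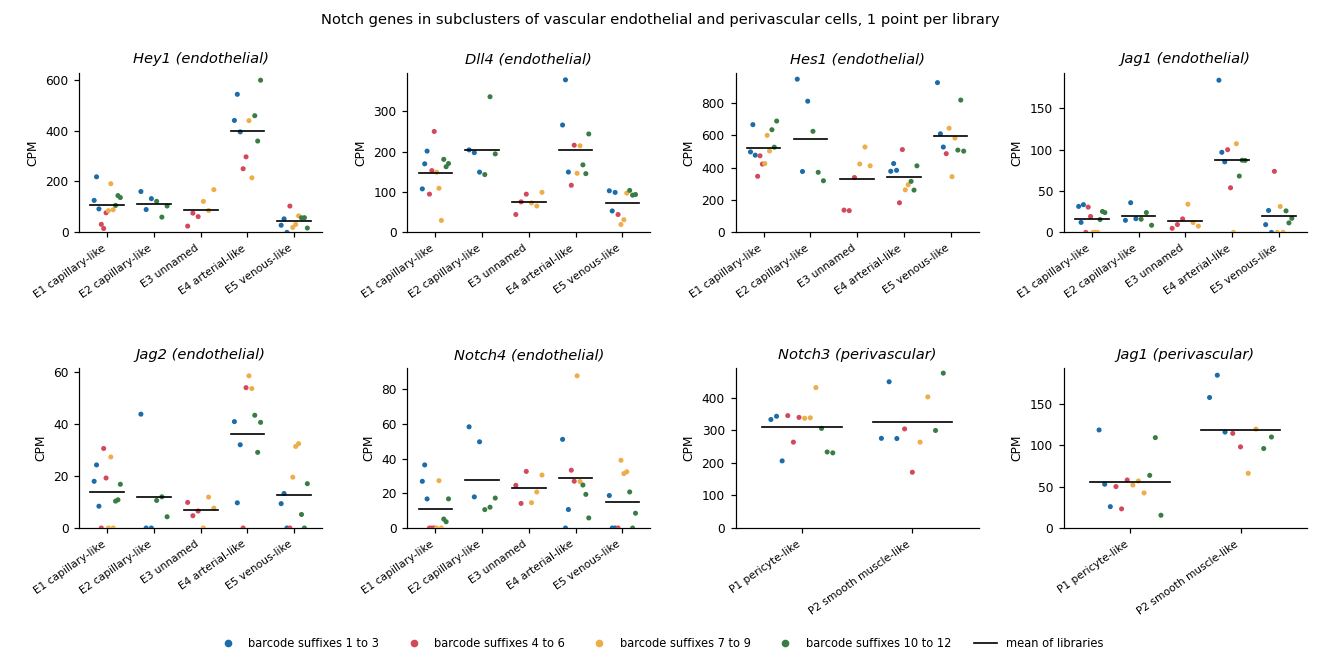
Levels in CPM of Notch genes in 5 subclusters of vascular endothelial cells and, in the last 2 panels, in 2 subclusters of perivascular cells. Each point is 1 library with at least 10 cells, coloured by barcode suffix run, and lines are means. *Hey1* averages 399 CPM in arterial-like E4 and 43.2 CPM in venous-like E5, and *Notch3* is at similar levels in P1 and P2.

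The perivascular cells formed P1, pericyte-like, with 450 cells, and P2, smooth muscle-like, with 194. *Notch3* had 206, 335 and 431 CPM as lowest, median and highest library in P1 (n = 12) and 171, 300 and 476 CPM in P2 (n = 9). The ranges overlapped almost fully, and P2 minus P1 was 0.05 (SE 0.17, adjusted p = 0.84) in a fit of 1425 genes of which 43.4% were called. An interval of 2 SE around that value lies inside the size limit of 0.5. *Hes1* had means of 218 and 255 CPM and was not called (adjusted p = 0.48). With no filter (14256 genes, 11% called), *Jag1* was 0.92 higher in P2 (SE 0.27, adjusted p = 0.010), at 118 ± 34.7 CPM, from 65.9 to 184, against 55.5 ± 31.1 CPM, from 15.4 to 118, in P1. Of the wider list, *Dlk1* was 5.42 higher in P1 (SE 0.45, adjusted p = 3e-08), at 226 against 8.98 CPM.

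In fibroblasts, 3 of the 10 genes were high enough to be tested between clusters: *Hes1*, *Jag1* and *Notch2*. The 12217 cells formed 9 clusters, called F1 to F9 by size. F5, with *Pi16* and *Dpp4*, was sublining-like, and F6, with *Prg4* and *Clic5*, was lining-like. The others are given by leading genes: F1 by *Inmt* and *Penk*, F2 by *C1qtnf3* and *Spon2*, F3 by *Ifi205* and *Ccl7*, F4 by *Cxcl5* and *Saa3*, F7 by *Col8a1* and *Egfl6*, F8 by *Fbln7* and *Hp*, and F9 by *Ccl11* and *Smoc2*. Each cluster was compared with the mean of the others over 7527 genes, of which 14.6% were called in F1, 20.7% in F2, 28.5% in F3, 26.7% in F4, 19.6% in F5, 31.7% in F6, 29.3% in F7, 11.3% in F8 and 19.2% in F9. In all, 7 pairs of a Notch gene and a cluster were called, 3 higher and 4 lower.

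*Hes1* was lowest in F4 and in the lining-like F6. F6 had 41.3, 57.9 and 106 CPM as lowest, median and highest library, below the other clusters in 12 of 12 libraries (-1.12, SE 0.14, adjusted p = 5.4e-11). F4 had the lowest mean, at 63.4 ± 40.0 CPM in 6 libraries (-1.11, SE 0.20, adjusted p = 3.1e-06). F7 was the highest, with 125, 215 and 368 CPM, above the others in 12 of 12 libraries (0.85, SE 0.13, adjusted p = 2.6e-08), and F9, at 183 ± 47.9 CPM, was 0.53 higher (SE 0.15, adjusted p = 0.0035), a call lost with no filter and without the library labelled rest 1, rest 2 or resolved 1. No F6 library reached the lowest F7 library. In the order of means, the only step between neighbours that was called was F3 over F6, at 1.11 (SE 0.18, adjusted p = 8.2e-08).

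The 20 dissociation genes were read in the clusters with a *Hes1* call and in F1. In F7, 13 were higher and 2 lower with a median difference of 0.75, and in F9 12 were higher and 0 lower with a median of 0.76. In F6, 0 were higher and 14 lower with a median of -0.74, and in F4 1 was higher and 6 lower with a median of -0.39. F1 had 11 higher and 0 lower without a call for *Hes1*. Of all genes, 15.3% were higher and 14.1% lower in F7, and 10.6% and 8.56% in F9. These shares were 14.4% and 17.2% in F6, 12.9% and 13.7% in F4, and 9.57% and 5.0% in F1. The part of the dissociation genes in the *Hes1* differences was not tested.

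*Jag1* was highest in F7, with 14.7, 26.1 and 46.4 CPM as lowest, median and highest library, against means of 10.1 to 19.2 CPM elsewhere. The difference was 1.01 (SE 0.18, adjusted p = 1.5e-06), in 12 of 12 libraries. *Notch2* was 0.84 lower in F9 (SE 0.20, adjusted p = 0.0004), at 18.7 ± 8.83 CPM, in 12 of 12 libraries. It was 0.52 lower in F6 (SE 0.12, adjusted p = 0.00014), a call lost after thinning and without the library labelled peak 1, resolving 3 or resolved 2.

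With no filter on low counts (19180 genes), *Heyl* stood out in F9, at 0, 8.91 and 47.1 CPM as lowest, median and highest library against means of at most 2.14 CPM in the other clusters. The difference was 4.38 (SE 0.40, adjusted p = 7.8e-21), with 11.2% of genes called in F9, from 0 to 7 UMIs per library. The 8 perivascular markers had a median summed level of 61.2 CPM in F9 and medians from 42.7 to 374 CPM in the other clusters. *Hey1* was 1.5 higher in F7 (SE 0.29, adjusted p = 5.8e-06; 20.1% called). Of the 27 other pathway genes tested, 5 were higher and 4 lower in F6, where 14.4% of all genes were higher and 17.2% lower. *Furin*, the protease that cuts Notch receptors on their way to the membrane, was 2.68 higher there (SE 0.10), at 227 against 31.8 CPM, and the coactivator *Maml2* 2.92 lower (SE 0.30).

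**Figure D3:**
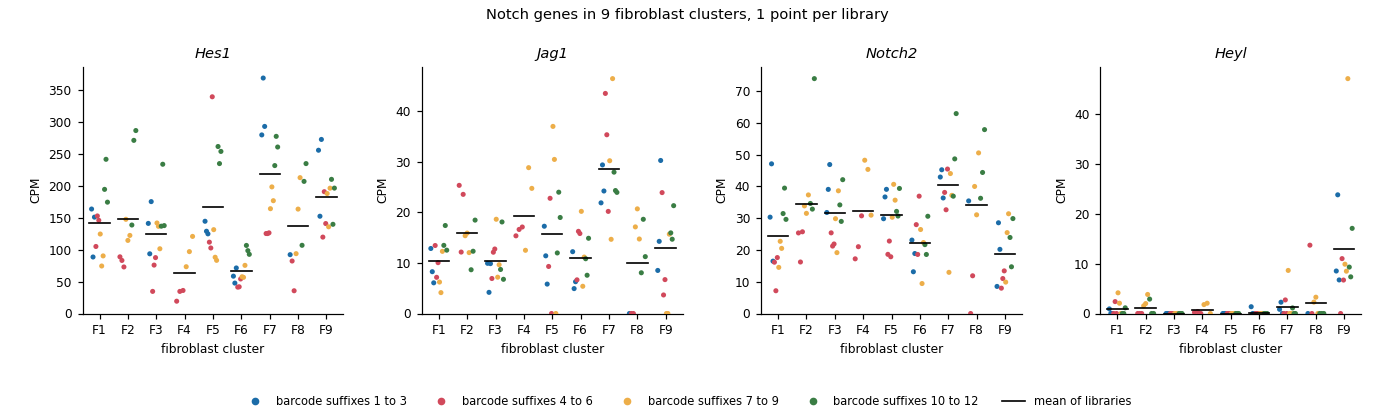
Levels in CPM of *Hes1*, *Jag1*, *Notch2* and *Heyl* in the 9 fibroblast clusters. Each point is 1 library with at least 10 cells of the cluster, coloured by barcode suffix run, and lines are means. *Hes1* and *Jag1* are highest in F7, *Hes1* is lowest in F4 and F6, and *Heyl* rises above 2.14 CPM on average only in F9.

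By stage label, no Notch gene was called. Peak, resolving and resolved libraries were each compared with rest in fibroblasts (7 of the 10 genes tested), vascular endothelial cells (6) and perivascular cells (4). In edgeR, 0 genes of any kind were called (percent called 0), while 58 to 77 of 12008 genes in fibroblasts, 60 to 126 of 6247 in vascular endothelium and 40 to 74 of 3097 in perivascular cells had an unadjusted p under 0.05. These counts are fewer than an unadjusted p under 0.05 gives by chance alone. The comparison by label was thus a weak one, and a missing call does not show a lack of change between stages. DESeq2 called 0 Notch genes and at most 1 gene of any kind. The spread inside a label was wide. *Hes1* in fibroblasts had 57.3, 127 and 173 CPM in the libraries labelled rest, 56.9, 123 and 185 at the peak, 125, 162 and 199 while resolving, and 35.8, 118 and 176 once resolved. The 4 labels overlapped, and the differences from rest were 0.09, 0.47 and -0.05 (SE 0.57 each). *Notch3* in perivascular cells had 255, 303 and 414 CPM at rest, 299, 303 and 400 at the peak, 250, 266 and 322 while resolving and 332, 343 and 345 once resolved. These values overlapped between rest and every later label. *Dll4* in vascular endothelial cells had 83.0, 114 and 158 CPM at rest and 119, 157 and 197 at the peak, again overlapping (0.46, SE 0.40).

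Between runs of barcode suffixes, 4 of 7 Notch genes differed in fibroblasts, 4 of 6 in vascular endothelial cells and 2 of 4 in perivascular cells. The fibroblast share is no larger than that of all genes, given next. The runs were noticed in the same counts, so their p-values describe these 12 libraries and are not independent evidence, and each run holds 3 libraries. An omnibus test asked whether a gene differed among the 4 runs, and each run was then compared with the mean of the others. In fibroblasts 61.6% of 12008 genes passed the omnibus test, and 4 of 7 Notch genes did, *Hes1* (adjusted p = 2.5e-06), *Heyl* (0.016), *Notch2* (0.033) and *Notch1* (0.047). The *Notch1* omnibus call was lost when any of 9 single libraries was left out, that of *Notch2* without rest 2, resolved 1 or resolved 3, and that of *Heyl* without rest 3.

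*Hes1* in fibroblasts was 57.3, 56.9 and 35.8 CPM in the libraries of suffixes 4 to 6, labelled rest 2, peak 2 and resolved 1. It was 173, 123 and 162 CPM in suffixes 1 to 3 (rest 1, peak 1, resolving 1), 127, 125 and 118 in suffixes 7 to 9 (rest 3, resolving 2, resolved 2), and 185, 199 and 176 in suffixes 10 to 12 (peak 3, resolving 3, resolved 3). All 3 libraries of suffixes 4 to 6 lay below the other 9, and all 3 of suffixes 10 to 12 lay above them. Suffixes 4 to 6 were 1.58 lower (SE 0.14, adjusted p = 7.2e-07; 32.6% of genes called) and suffixes 10 to 12 were 0.98 higher (SE 0.12, adjusted p = 4.8e-05; 18.4% called), the latter lost with the replicate number as a block.

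Cluster makeup moved with this. F4, in which *Hes1* was low, made up 44.2% of the fibroblasts of suffixes 4 to 6 and at most 3.73% elsewhere. Within single clusters, suffixes 4 to 6 stayed lower in F3 (-1.1, SE 0.24, adjusted p = 0.0093), F6 (-0.69, SE 0.16, adjusted p = 0.0022) and F7 (-0.95, SE 0.16, adjusted p = 0.016). The omnibus test called 9.19% of genes within F3, 31.9% within F6 and 1.85% within F7. In F1 (5.5%), F5 (1.29%) and F9 (2.77%) the differences were -0.03, 0.24 and -0.20 and were not called. Suffixes 10 to 12 were higher within F1 (0.82, SE 0.17, adjusted p = 0.0096), F5 (0.90, SE 0.19, adjusted p = 0.020) and F6 (0.91, SE 0.13, adjusted p = 0.0001). Within F3, F7 and F9 they were not called, and these fits and the replicate block gave values from 0.03 to 0.66. The summed level of the 20 dissociation genes in fibroblasts also differed, with medians of 23751, 16826, 18853 and 26146 CPM in the 4 runs in order of suffix, the same order of runs as for *Hes1*. Neither the part of makeup nor that of dissociation was tested.

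The other calls in fibroblasts were smaller. *Notch1* had 4.60, 6.01 and 5.68 CPM in suffixes 4 to 6, above the 9 other libraries (1.1, SE 0.34, adjusted p = 0.016), a call lost with the replicate block and without the library labelled peak 2 or resolved 1. *Notch2* was 0.53 lower there (SE 0.15, adjusted p = 0.0084), lost under 13 alternatives with values from -1.01 to 0.40. Among these were the replicate block, thinning and the fits within F1, F3, F5, F6 and F7. Leaving out rest 2, rest 3, peak 1, resolved 1 or resolved 3 also ended the call, with values from -0.49 to -0.43. In suffixes 7 to 9 (18.3% called) *Heyl*, at 3.56, 1.86 and 1.97 CPM, was 1.77 higher (SE 0.44, adjusted p = 0.008), and *Notch3*, at 4.31, 2.72 and 3.93 CPM, 0.83 higher (SE 0.24, adjusted p = 0.02). Both were lost with the replicate block and without the library labelled rest 3, and *Notch3* also without resolved 2. In suffixes 1 to 3 none of the 10 was called (18.2% of genes called).

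In vascular endothelial cells 30.5% of 6247 genes passed the omnibus test, and of 6 Notch genes *Hes1* (adjusted p = 0.0002), *Dll4* (0.00035), *Hey1* (0.00066) and *Jag1* (0.029) did, while *Notch1* (0.89) and *Notch4* (0.26) did not. *Hey1* was 87.8, 79.4 and 34.8 CPM in suffixes 4 to 6 and 97.8 to 229 CPM in the other 9 libraries, with no overlap (-1.11, SE 0.21, adjusted p = 0.00045; 22.3% called). *Hes1*, at 225, 362 and 191 CPM against 423 to 640 CPM, was also lower without overlap (-0.96, SE 0.15, adjusted p = 6.9e-05). *Dll4* had 83.0, 119 and 66.1 CPM in suffixes 4 to 6 and 114, 78.9 and 91.1 CPM in 7 to 9, against 151 to 197 CPM in the other 6 libraries. It was 0.66 higher in suffixes 10 to 12 (SE 0.15, adjusted p = 0.0023; 15.9% called), a call lost with the replicate block (0.03, SE 0.37). *Dll4* was also called in suffixes 1 to 3 (0.54, adjusted p = 0.029) and 4 to 6 (-0.62, adjusted p = 0.012), lost under 8 and 6 alternatives. In suffixes 1 to 3 *Hes1* (0.54, adjusted p = 0.014) and *Hey1* (0.67, adjusted p = 0.019) were higher, lost under 8 and 4. *Hey1* was also higher in suffixes 10 to 12 (0.54, adjusted p = 0.030), lost under 10. *Jag1*, at 53.2, 45.4 and 35 CPM, was 1.0 higher in suffixes 1 to 3 (SE 0.27, adjusted p = 0.02; 8.79% called), above the other 9 libraries. That call was lost with the replicate block, and without the library labelled rest 1 (0.86) or peak 1 (0.98), which also ended its omnibus call. DESeq2 ended the omnibus call of *Jag1* as well. In suffixes 7 to 9 none was called (5.7% of genes called).

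Subcluster makeup differed between the runs. E3, which had means of 75.4 CPM of *Dll4* and 329 CPM of *Hes1* and no Notch gene called, made up 2.85%, 50.0%, 48.5% and 1.25% of the endothelial cells in the 4 runs. Without E3, 0 Notch genes were called (134 of 4714 genes, 2.84%), and within E1, 0 were called (27 of 1853 genes, 1.46%). In suffixes 4 to 6, *Hey1* was -0.63 (SE 0.25) without E3 and -1.67 (SE 0.57) within E1, and *Hes1* was -0.32 (SE 0.14) and -0.38 (SE 0.20). *Jag1* in suffixes 1 to 3 was 0.57 (SE 0.38) without E3. The part of makeup was not tested. The summed dissociation genes had run medians of 42942, 21608, 27197 and 48544 CPM.

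Perivascular *Notch3* did not follow the runs, with 303, 400 and 250 CPM in suffixes 1 to 3, 255, 299 and 332 in 4 to 6, 414, 322 and 345 in 7 to 9, and 303, 266 and 343 in 10 to 12 (omnibus adjusted p = 0.72). *Heyl* was not called either (0.48). *Hes1* (0.036) and *Jag1* (0.043) passed the omnibus test, where 27.0% of 3097 genes did. In suffixes 1 to 3 (12.2% called) *Hes1* was 282, 209 and 602 CPM and 1.09 higher (SE 0.31, adjusted p = 0.027), and *Jag1* was 139, 123 and 83.4 CPM and 0.93 higher (SE 0.27, adjusted p = 0.029). Both ranges overlapped those of other runs. In the other runs, in which 16.5%, 9.33% and 8.1% of genes were called in order of suffix, no Notch gene was. Both calls were lost with the replicate block, that of *Hes1* also within P1 (24.6% of genes past the omnibus test), and both without single libraries: *Hes1* without rest 1, peak 3, resolving 1 or resolved 2, and *Jag1* without rest 1, peak 1, peak 3 or resolved 3. The omnibus calls were lost without 5 single libraries for *Hes1* and without 8 for *Jag1*. Of the wider list, *Nrarp* was higher in suffixes 1 to 3 in perivascular cells (1.27, SE 0.35, adjusted p = 0.02) and in vascular endothelial cells (1.73, SE 0.41, adjusted p = 0.0072).

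**Figure D4:**
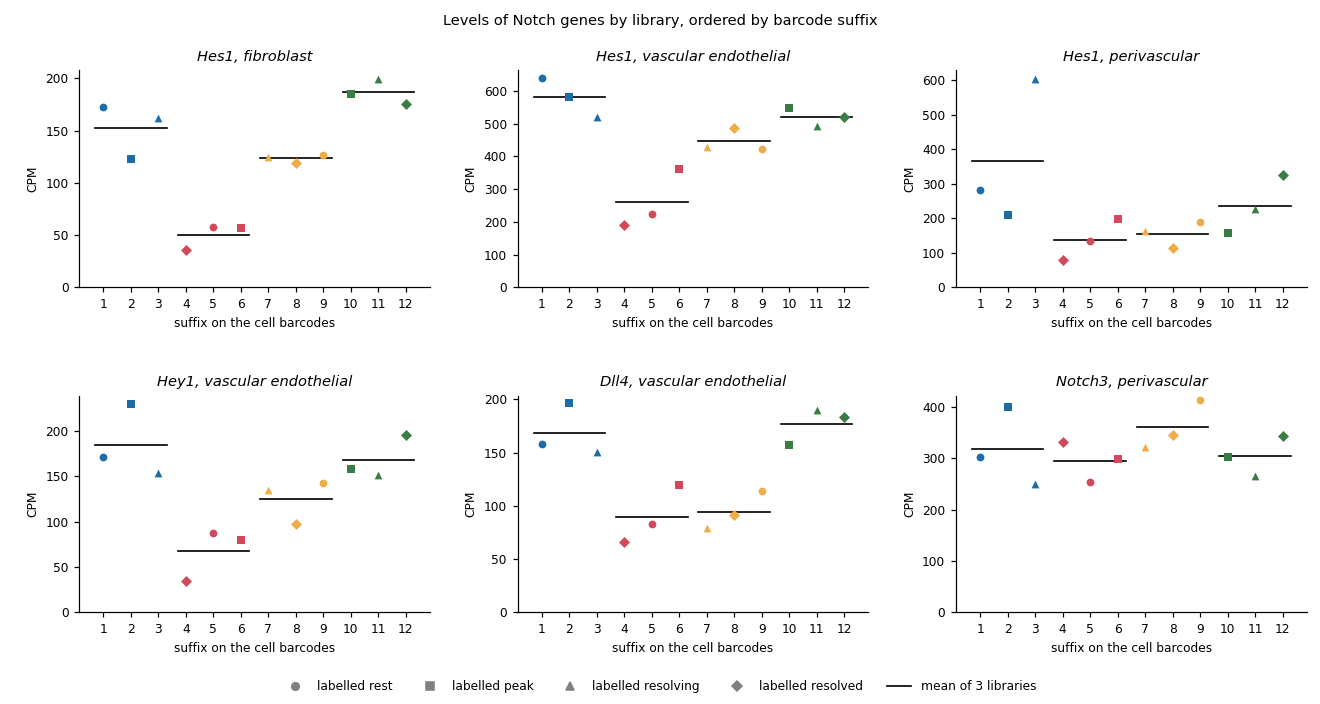
Level in CPM of *Hes1*, *Hey1*, *Dll4* and *Notch3* in 1 cell type per panel, by the suffix on the cell barcodes. Each point is 1 library, its shape the stage label and its colour the run of 3 suffixes, with a line at the mean of each run. *Hes1* in fibroblasts is 35.8 to 57.3 CPM in suffixes 4 to 6 and 118 to 199 CPM elsewhere, and *Notch3* in perivascular cells shows no such step.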

How the data were processed

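Live CD45-negative cells from hind limb joints of mice at rest and after the transfer of arthritogenic serum were profiled by droplet 3′ RNA sequencing (10x Genomics, version 2 kit) in 12 libraries. The authors deposited UMI counts per gene and cell, made with Cell Ranger on mm10 per the labels, version 2.1.1 per the methods. The median UMIs per deposited cell were equal in all libraries, and the depth before deposit is not known. Columns of per-sample values left unused numbered 0.

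Cells with over 500 genes and UMIs, under 5000 genes and under an upper limit of 20000 to 40000 UMIs per library were kept, after the methods of the study. They were clustered with scanpy 1.11.5 (2000 variable genes without Notch pathway genes, 30 components, 20 neighbours, Leiden resolution 1, seed 1, Python 3.11.15) and named from marker lists. Scrublet called 56 cells (0.279%), too few to trust, so doublets were kept and an alternative removed the top 6% of scores. UMIs were summed per library and type where at least 10 cells were present in at least 3 libraries. The sums were tested with edgeR 4.0.16 in R 4.3.3 (quasi-likelihood, TMM, filterByExpr, two-sided, Benjamini-Hochberg over all genes tested), checked on simulated data. Type and cluster fits held library as a block. Replicates are separate pools of animals.

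The genes named are the 10 members, up to 4 other pathway genes each way per contrast with the largest called difference, the 3 genes most like each member, markers and leading genes. *Gm17276* and the 7 leukocyte markers are given as checks. The members and lists were chosen with earlier results of these data known. Alternatives were DESeq2 1.42.0, RLE scaling, no filter, thinning to 2000 UMIs per cell, another resolution, a mitochondrial limit of 10%, doublet removal, the replicate or suffix block, and leaving out each library. At the other resolution, 0.5, no cluster was named muscle or proliferating, so it did not check the calls in these types. Tests within clusters or without E3, the thinned suffix runs, the mixed subclusters kept and the stage label as a second term were added after seeing the data. Of 27998 gene identifiers 27645 were placed with GENCODE M21. Intervals of shares (Wilson, 95%) and the limit from a count of 0 (3 counts) cover counting error only.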

Additional observations from a re-analysis of the deposited data

Results flagged for a closer look

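Among 83 groups of 4 to 10 libraries, 13 held a library whose value stood apart from the others by Dixon's criterion, and chance alone marks about 1 in 20. In 12 of the 13 the value rested on 0 or 1 UMI in a small sum.

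In chondrocytes *Notch2* was 0 CPM in the library labelled rest 2 and *Hes1* was 6.83 CPM (1 UMI) in resolved 1, each from 18 cells. In lymphatic endothelium *Hey1* was 0 CPM in resolving 1, from 14 cells. In muscle *Notch2* and *Hes1* were both 0 CPM in rest 3, from 15 cells. In the fibroblast cluster F4 the library labelled rest 3, with 33 cells, had 0 CPM of *Notch1* and 6.19 CPM of *Notch3* (2 UMIs). In F8 *Notch2* was 0 CPM in rest 2, from 11 cells.

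In endothelial E3 *Jag2* was 0 CPM in resolving 2, from 39 cells. In arterial-like E4 *Jag1* was 0 CPM in resolving 2 (13 cells) and *Jag2* 0 CPM in rest 2 (17 cells), while the next lowest libraries had 54.0 and 9.69 CPM. In E5 *Hey1* was 0 CPM in resolving 1, from 21 cells, and in P2 *Heyl* was 0 CPM in resolved 1, from 25 cells.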

How the results depend on the processing

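Of the single values of the 10 genes, RLE scaling left 247 on the same side of the threshold and ended 3 calls, no filter left 241 and ended 8, and DESeq2 left 236 and ended 8. Leaving out a library ended a call in 102 of the refitted values and turned none in sign. Values turned in sign as follows. *Dll4* in chondrocytes was 1.87 under DESeq2 (-0.10 in edgeR). With the mixed endothelial subclusters kept, *Notch3* and *Heyl* in vascular endothelium were 2.97 and 1.91 (from -0.94 and -0.13). For suffixes 4 to 6, *Hes1* within F5 was 0.24, *Notch2* within F6 0.40 and *Dll4* within E1 0.33, against -1.58, -0.53 and -0.62 over all cells of the type. With the replicate block, *Hey1* in endothelial suffixes 10 to 12 was -0.25 (from 0.54). Apart from what each alternative leaves out, the causes were not tested. RLE scaling moved the median of all genes by over 0.1 only for lymphatic endothelium, from -0.21 to 0.05.

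Counts of calls moved by over 1.5 times as follows. Thinning left 3 of 10 lower calls between types. It ended those of *Jag1* in chondrocytes and of *Notch3* in chondrocytes and vascular endothelium. *Notch2* was not tested between types after thinning, so its lower calls were not checked at equal depth. Without a filter, more low genes were tested: fibroblast clusters gave 11 higher and 8 lower calls (from 3 and 4) and vascular subclusters 5 higher (from 3), while the fit with no library block gave 5 lower (from 3). For suffix runs in fibroblasts (4 genes past the omnibus test, 6 pairs called), the replicate block gave 2 and 3, thinning 1 and 3, and single clusters 1 omnibus call each with 1 pair in F1, F3 and F5 and 2 in F6 and F7, and 0 of both in F9. In vascular endothelium (4 and 9), the replicate block gave 2 pairs, thinning 4 pairs, and the fits without E3 and within E1 0 of both. In perivascular cells (2 and 2), no filter, DESeq2 and thinning each gave 1 and 1, and the replicate block and P1 alone 0 and 0.

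Leaving out 1 library gave 24 to 26 higher and 8 to 11 lower calls between types, 2 to 3 and 3 to 5 between fibroblast clusters, and 2 to 5 and 3 to 4 between vascular subclusters. By stage label it gave 0 to 0 in each type. For suffix runs it gave 2 to 5 omnibus calls and 3 to 7 pairs in fibroblasts, 3 to 4 and 5 to 10 in vascular endothelium, and 0 to 2 and 0 to 2 in perivascular cells.

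Shares of cells with a UMI fell when cells were thinned to 2000 UMIs: *Notch1* in lymphatic endothelium to 21.1%, *Notch2* in proliferating cells to 5.28%, *Notch3* in perivascular cells to 49.3%, *Notch4*, *Jag2* and *Dll4* in vascular endothelium to 3.03%, 2.74% and 23.1%, *Jag1* in perivascular cells to 13%, *Hes1* and *Hey1* in lymphatic endothelium to 56.1% and 18.1%, and *Heyl* in muscle to 22.7%.

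Replicate numbers were not taken to pair the libraries, since the correlation of same-numbered pairs was over 0.1 in 11 of 18 pairs in fibroblasts, 12 in vascular endothelium and 9 in perivascular cells, and not in all. Of 12 libraries, 5, 8 and 6 were most like one of their own number. Suffixes 1 to 3 all carry replicate number 1 and 10 to 12 number 3, so number and run are in part the same split. By stage label the replicate block gave 0 Notch calls in each type. In the runs it left 43.5% of genes past the omnibus test in fibroblasts, 11.2% in vascular endothelium and 4.91% in perivascular cells. Depth limits the sparse genes: *Notch4*, *Jag2* and *Heyl* rest on few UMIs outside their main types, and libraries with 10 to 40 cells of a type can read 0 for genes that others detect.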
